A study of Mus musculus with 4 samples.

Results

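The genes described are 7 members of the prostaglandin and leukotriene pathways: Ptgs1, Ptgs2, Ptges, Ptger2, Ptger4, Alox5 and Alox5ap. They were measured in mouse spleen B cells by 8 probes, of 39429 gene probes on the array. The set was picked from these same arrays, because Ptgs1 differed between genotypes and Ptgs2 differed between replicate numbers. Those 2 differences are therefore given as descriptions with no test. Of the 7 genes, 6 passed the filter on dim probes and were among the 20646 features tested, and Alox5 was not.

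The samples were 2 of genotype Aff3-/- and 2 of genotype Aff3+/-. Aff3 belongs to the AF4/FMR2 gene family and encodes a nuclear protein. B cells lacking the surface protein CD43, a selection that leaves resting B cells, came from the spleens of mice of each genotype. Both genotypes received the same culture, 3 days with 10 ug/mL of the bacterial product LPS and 10 ng/mL of the cytokine IL-4, so no unstimulated cells enter any comparison. The comparison group carries 1 mutant allele and is not wild type. The nature of the Aff3 mutation, the strain, age and sex of the mice, and whether they were pooled are not given in the sources used here. The samples of each genotype are numbered 1 and 2. The labels do not say whether a number stands for a mouse, a culture or a day, and the p-values cover no more than the variation among these 4 samples, which may be technical.

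Prostaglandins and leukotrienes are lipid mediators made from arachidonic acid, a fatty acid that phospholipases release from membranes. The cyclooxygenases Ptgs1 and Ptgs2 (COX-1 and COX-2) turn it into the precursor of all prostanoids, Ptges converts that precursor to prostaglandin E2, and the receptors Ptger2 and Ptger4 (EP2 and EP4) pass the prostaglandin E2 signal on by raising cyclic AMP. On the other branch, 5-lipoxygenase (Alox5), helped by its activating protein Alox5ap (FLAP), starts leukotriene synthesis. Ptgs1 is known as the constitutive enzyme and is abundant in platelets, whereas Ptgs2 is known as the enzyme induced by LPS and growth signals. Prostaglandin E2 acting on B cells is known to modulate class switching in the presence of LPS and IL-4.

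On the arrays, signal is fluorescence intensity in arbitrary units. Differences were taken on the log2 scale after dividing each array by its 75th percentile, which was 1317 and 1288 units on Aff3-/- replicates 1 and 2, against 1274 and 1351 units on Aff3+/- replicates 1 and 2. Between 24942 and 25862 probes per array were well above background, no gene spot was saturated, and the number of arrays limits the precision. All 12 B cell markers were well above background on all 4 arrays. Between genotypes, limma (2 residual degrees of freedom) called 0 features at an adjusted p under 0.05, which is 0% in each direction, and 422 (2.04%) had an unadjusted p under 0.05. The targeted gene, Aff3, was not analysed here, so the genotype labels were not checked against it.

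The sequences around the annotated starts of Ptgs1, Ptgs2 and Ptger2 are shown because Ptgs1 and Ptger2 were higher on both Aff3-/- arrays and Ptgs2 followed the replicate number. Each runs 5′ to 3′ on the gene's strand, from 250 bases before the start to 50 bases after it (RefSeq, GRCm38.p6). Ptgs1 lies at chr2:36230176-36230475, Ptgs2 at chr1:150099781-150100080 and Ptger2 at chr14:44987861-44988160, all on the plus strand. Capitals mark matches to any of 7 motifs searched on both strands.
Ptgs1: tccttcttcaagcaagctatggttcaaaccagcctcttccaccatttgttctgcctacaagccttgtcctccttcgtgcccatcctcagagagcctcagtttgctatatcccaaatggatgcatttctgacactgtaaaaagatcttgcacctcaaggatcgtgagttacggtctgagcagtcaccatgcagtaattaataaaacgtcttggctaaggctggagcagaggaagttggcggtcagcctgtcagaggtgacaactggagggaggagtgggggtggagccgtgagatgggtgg
Ptgs2: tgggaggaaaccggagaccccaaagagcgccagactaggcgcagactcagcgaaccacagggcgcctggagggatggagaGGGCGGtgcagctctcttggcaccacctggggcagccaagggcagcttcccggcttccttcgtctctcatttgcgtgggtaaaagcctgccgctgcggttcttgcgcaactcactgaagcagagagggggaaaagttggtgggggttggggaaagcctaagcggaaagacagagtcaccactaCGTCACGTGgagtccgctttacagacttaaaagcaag
Ptger2: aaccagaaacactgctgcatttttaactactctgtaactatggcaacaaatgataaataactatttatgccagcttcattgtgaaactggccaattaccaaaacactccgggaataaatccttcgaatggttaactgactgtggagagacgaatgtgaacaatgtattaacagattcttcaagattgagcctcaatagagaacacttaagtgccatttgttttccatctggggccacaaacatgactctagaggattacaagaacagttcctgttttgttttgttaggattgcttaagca
The motifs were the TATA box TATAAA, the core of the cyclic AMP response element, TGACG, the AP-1 site TGANTCA, the E-box CACGTG, the STAT6 site (TTC and GAA with any 4 bases between them), the GC box GGGCGG and the NF-kB site. In the Ptgs2 window, the response element core matched on the minus strand beginning 13 bases after the first annotated base of the transcript, and the E-box matched beginning 16 bases after it, so that the matches overlap. A GC box matched at position -170. Among all 32851 mouse promoter windows of this length, 20.8% hold the response element core, 7.15% the E-box and 35.7% the GC box. None of the 7 motifs occurs in the Ptgs1 and Ptger2 windows. The other motifs occur in 13.6% (TATA box), 7.81% (AP-1), 6.95% (STAT6) and 8.46% (NF-kB) of all windows. A match describes letters in the window and is not evidence of binding.

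Ptgs1 was higher in Aff3-/- cells. Its probe A_51_P279100 read 160 and 138 units on Aff3-/- replicates 1 and 2, against 34.6 and 75.6 units on Aff3+/- replicates 1 and 2. Both Aff3-/- arrays were above both Aff3+/- arrays, and the Aff3-/- arrays lay closer together, with a log2 SD of 0.13 in Aff3-/- and 0.74 in Aff3+/- (n = 2 each). The scaled difference, Aff3-/- minus Aff3+/-, was 1.55 ± 0.37 on the log2 scale (SE, n = 2 each), a 2.93-fold higher signal. By size of genotype difference this was rank 14 of all features tested. Differences of at least 2-fold with no overlap between genotypes were found for 29 features higher in Aff3-/- (0.14%) and 32 lower (0.155%).

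The size of the Ptgs1 difference depended on which arrays were set against each other. Within replicate number 1 the Aff3-/- signal was 4.48-fold the Aff3+/- signal, and within number 2 it was 1.92-fold. The Aff3+/- arrays themselves differed 2.06-fold, replicate 2 over replicate 1. Leaving out Aff3+/- replicate 1 lowered the difference to 1.03 on the log2 scale, and leaving out Aff3+/- replicate 2 raised it to 2.07. With another background correction (normexp, which adds 50 units) it was 0.84. In a bulk sample, fewer cells of a type and less RNA per cell cannot be told apart.

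**Figure D1:**
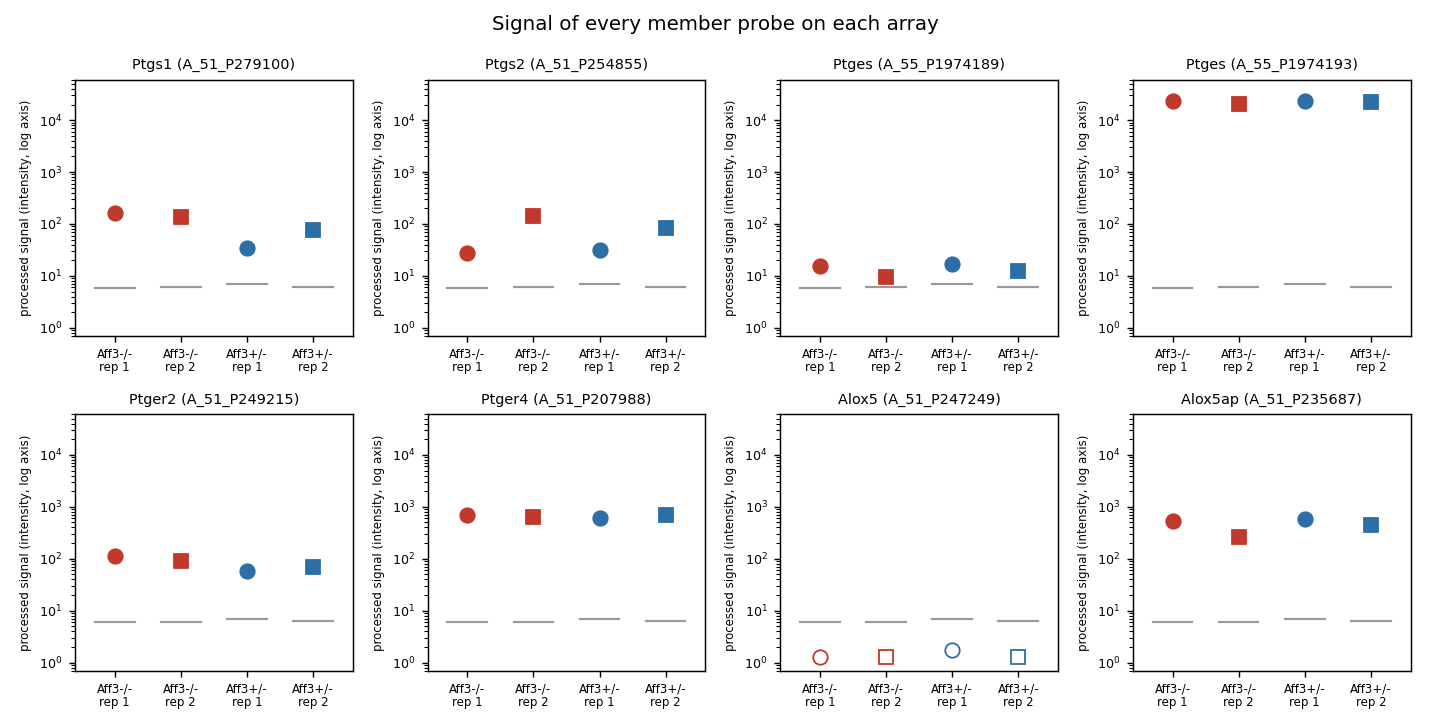
Processed signal (intensity, log axis) of the 8 probes of the 7 genes on each of the 4 arrays, with Aff3-/- in red, Aff3+/- in blue, circles for replicate number 1 and squares for number 2. Open symbols mark probes not well above background, and grey bars mark the lowest signal that was. Ptgs1 and Ptger2 are higher on both Aff3-/- arrays, Ptgs2 is higher on both number 2 arrays, and Alox5 lies under the bars on all 4.

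Ptgs2 separated by replicate number, while its genotypes overlapped. Its probe A_51_P254855 read 27.7 units on Aff3-/- replicate 1 and 31.1 units on Aff3+/- replicate 1, against 140 units on Aff3-/- replicate 2 and 85.1 units on Aff3+/- replicate 2. Both number 2 arrays were above both number 1 arrays. Number 1 minus number 2 was -1.87 ± 0.28 on the log2 scale (SE), which is 3.66-fold more signal under number 2, and the fold was 5.18 among the Aff3-/- arrays and 2.58 among the Aff3+/- arrays. This was rank 8 among all features by size of the number difference. A number 1 signal lower by at least 2-fold, without overlap, was found for 67 features (0.325%), and one higher by at least 2-fold for 102 features (0.494%). With the normexp correction the Ptgs2 value was -0.82.

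The array carries 10 repeated spots of the Ptgs2 probe, which show how far the signal varies within an array. The spots used ranged over 23.1 to 34.4 units on Aff3-/- replicate 1, 129 to 144 on Aff3-/- replicate 2, 26.8 to 35.0 on Aff3+/- replicate 1 and 79.2 to 89.7 on Aff3+/- replicate 2. On each number 2 array 9 spots were used and 1 was left out for an outlier flag. The 2 number 1 arrays overlapped in their spots, and neither overlapped with a number 2 array. Repeated spots share the RNA of their sample and are not replicates.

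Between genotypes, the Ptgs2 difference was 0.29 ± 0.91 on the log2 scale (SE, n = 2 each), with a 95% interval from -2.11 to 2.69 (limma, adjusted p = 1.00). This SE includes the difference between replicate numbers. With number as a term, on 1 residual degree of freedom, the SE was 0.28 (limma, adjusted p = 0.94). The Aff3-/- over Aff3+/- ratio was 0.863 within number 1 and 1.73 within number 2, so the sign differed between the numbers. Leaving out Aff3-/- replicate 2 gave -0.90 and leaving out Aff3+/- replicate 1 gave -0.39. It came to 1.48 when Aff3-/- replicate 1 was dropped, and to 0.97 when Aff3+/- replicate 2 was dropped. The genotype direction of Ptgs2 therefore rested on single arrays.

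**Figure D2:**
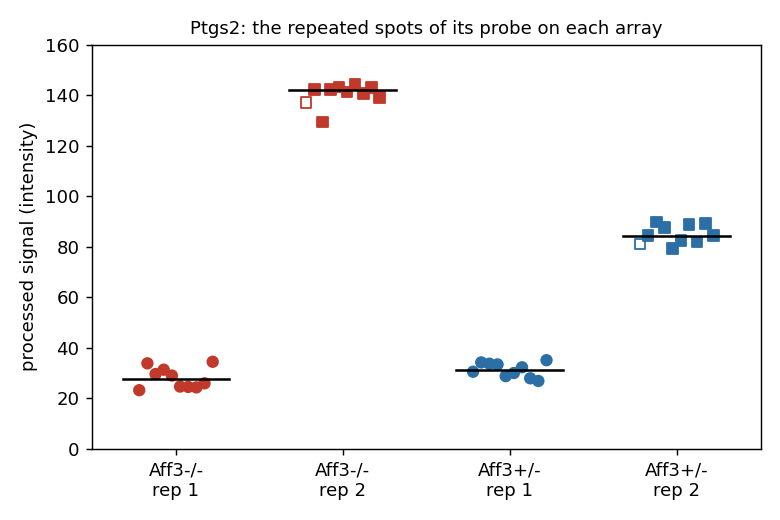
Processed signal (intensity, linear axis from 0) of the 10 repeated spots of the Ptgs2 probe on each array, Aff3-/- in red and Aff3+/- in blue, with circles for replicate number 1 and squares for number 2. Open symbols are spots left out for an outlier flag, and black lines are medians of the spots used, at 27.4 and 142 units on Aff3-/- replicates 1 and 2 and 31.3 and 84.4 units on Aff3+/- replicates 1 and 2.

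Ptges, the inducible prostaglandin E synthase, showed no difference between genotypes larger than its spread. Probe A_55_P1974193 read 23863 and 20234 units on Aff3-/- replicates 1 and 2, against 22879 and 22292 units on Aff3+/- replicates 1 and 2. The groups overlapped, and the difference was -0.03 ± 0.13 (log2, SE), with a 95% interval from -0.39 to 0.33 (limma, adjusted p = 1.00). The other Ptges probe, A_55_P1974189, read 15.6 and 9.49 units on the Aff3-/- arrays, against 17.0 and 12.4 units on the Aff3+/- arrays. It gave a difference of -0.24 and also overlapped between genotypes. Both probes are assigned to the same transcript, and which of them reflects its level was not tested. The test and counts of Ptges use the brighter probe. Number 1 exceeded number 2 by 0.16 ± 0.08 for the first probe and by 0.61 for the second. The sign of the genotype difference of the first probe turned when single arrays were left out. It was 0.032 once Aff3+/- replicate 1 was dropped, and dropping Aff3-/- replicate 2 in its place gave 0.074.

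Of the prostaglandin E2 receptors, Ptger2 was higher on both Aff3-/- arrays and Ptger4 overlapped. Ptger2 (probe A_51_P249215) read 114 and 91.3 units on Aff3-/- replicates 1 and 2, against 56.9 and 70.3 units on Aff3+/- replicates 1 and 2. No Aff3+/- array reached an Aff3-/- array. The difference was 0.70 ± 0.16 (log2, SE, n = 2 each), a 1.63-fold higher signal with a 95% interval from 0.27 to 1.13 on the log2 scale, and it did not pass limma's test over all features (adjusted p = 1.00). With the normexp correction the difference was 0.34. The fold was 1.95 within number 1 and 1.36 within number 2. Number 1 minus number 2 was 0.04 ± 0.16, and the arrays of the numbers overlapped.

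Ptger4 (probe A_51_P207988) read 694 and 647 units on Aff3-/- replicates 1 and 2, against 609 and 683 units on Aff3+/- replicates 1 and 2. The arrays overlapped between genotypes and between numbers. The genotype difference was 0.06 ± 0.11 (log2, SE), with a 95% interval from -0.24 to 0.37 (limma, adjusted p = 1.00), and number 1 minus number 2 was -0.01 ± 0.08.

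On the leukotriene side, Alox5 was not well above background on any array. Its probe A_51_P247249 read 1.27 and 1.29 units on Aff3-/- replicates 1 and 2, against 1.75 and 1.27 units on Aff3+/- replicates 1 and 2, and no fold is given. The lowest signal of any probe well above background was 5.96 and 6.17 units on the Aff3-/- arrays and 6.95 and 6.24 units on the Aff3+/- arrays. Alox5ap, the membrane protein that presents arachidonic acid to 5-lipoxygenase, was by contrast well above background on all 4. Its probe A_51_P235687 read 535 and 268 units on Aff3-/- replicates 1 and 2, against 586 and 456 units on Aff3+/- replicates 1 and 2.

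Alox5ap was lowest on Aff3-/- replicate 2, and the genotypes overlapped. The genotype difference was -0.44 ± 0.37 (log2, SE), with a 95% interval from -1.41 to 0.53 (limma, adjusted p = 1.00). This SE too includes the difference between numbers, and with number as a term it was 0.16 (limma, adjusted p = 0.72). Aff3-/- over Aff3+/- was 0.883 within number 1 and 0.616 within number 2, and the difference was 0.045 without Aff3-/- replicate 2. Both number 1 arrays were above both number 2 arrays, with a difference of 0.71 ± 0.16 (log2, SE; limma with genotype and number as terms, adjusted p = 0.119). Across all features, 33.5% had both number 1 arrays higher and 30.7% had both lower.

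Of the 6 genes tested, 2 were higher in Aff3-/- without overlap (Ptgs1 and Ptger2) and 0 were lower, against 8.44% of all features higher, 11.1% lower and 19.6% in either direction. Ptgs1 entered the set for its genotype difference, so the count is a description. By replicate number, 2 were higher under number 1 without overlap (Ptges and Alox5ap) and 1 was lower (Ptgs2), and 64.2% of all features did not overlap between the numbers in either direction. Their median genotype difference was 0.18 on the log2 scale and 0.06 without Ptgs1, against -0.01 over all features.

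**Figure D3:**
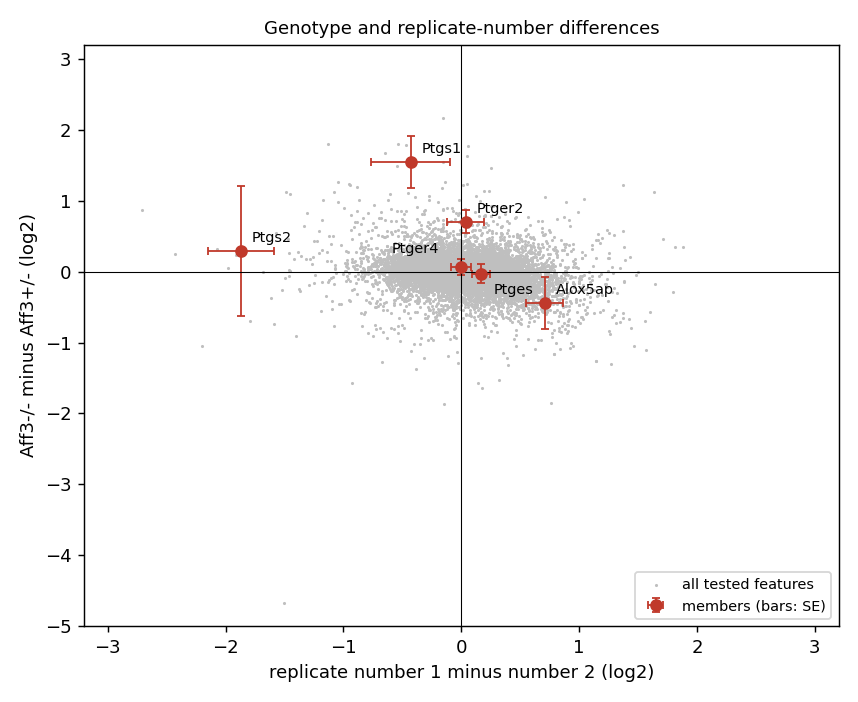
Genotype difference (Aff3-/- minus Aff3+/-, log2, vertical) against replicate number difference (number 1 minus number 2, log2, horizontal) for all features tested (grey) and the 6 tested genes (red, bars are standard errors). Ptgs1 lies at 1.55 on the vertical axis and Ptgs2 at -1.87 on the horizontal axis, while Ptges and Ptger4 lie near the centre.

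The rest of the pathway was read from 7 lists holding 123 other genes, of which 93 were tested. None passed the genotype test (0 called, limma, smallest adjusted p = 1.00), and 2 had an unadjusted p under 0.05. Without overlap between genotypes, 9 were higher in Aff3-/- (9.68%, against 8.44% of all features) and 11 were lower (11.8%, against 11.1%). The median difference was -0.01, as over all features, the range ran from -0.69 to 0.94, and 0 genes differed by at least 2-fold. By replicate number, 34 were higher under number 1 without overlap (36.6%, against 33.5% of all features) and 25 were lower (26.9%, against 30.7%). Of these, 2 were higher by at least 2-fold (Cebpb and Egr1), against 0.494% of all features, and 4 were lower (Slco3a1, Fos, Fosl2 and Nr4a1), against 0.325%.

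Among the prostanoid synthesis genes, 22 of 28 with a probe were well above background on all arrays. Tbxas1, thromboxane A synthase, read 184 and 233 units on Aff3-/- replicates 1 and 2, against 71.8 and 165 units on Aff3+/- replicates 1 and 2. Its genotypes did not overlap, with a difference of 0.94 ± 0.40 (log2, SE), and Aff3+/- replicate 1 was the lowest array, as it was for Ptgs1. Pla2g10, a secreted phospholipase, read 6.12 and 7.06 units on the Aff3-/- arrays, against 10.9 and 9.23 units on the Aff3+/- arrays. It was well above background on 1 of 2 Aff3-/- arrays and on both Aff3+/- arrays, so it passed the filter only through the genotype where it is higher, and its difference of -0.60 ± 0.17 includes an array at background. Pla2g4c, a cytosolic phospholipase, was also well above background on 1 of 2 Aff3-/- arrays and on both Aff3+/- arrays. It read 7.61 units on Aff3-/- replicate 1 and 13.3 on Aff3+/- replicate 1, against 25.2 on Aff3-/- replicate 2 and 16.1 on Aff3+/- replicate 2, a number difference of -0.97 that includes the array at background. Pla2g4a, the phospholipase that supplies most arachidonic acid, differed by -0.18 ± 0.19 between genotypes. In transport and breakdown, 5 of 6 genes were well above background on all arrays. Ptgr2, a prostaglandin reductase, differed by -0.08 between genotypes, and Slco3a1, an organic anion transporter, by 0.37 ± 0.50 between genotypes and by -1.03 between numbers.

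Of the 8 prostanoid receptor genes besides Ptger2 and Ptger4, 2 were well above background on all arrays. Ptger1, a further prostaglandin E2 receptor, was well above background on 3 arrays and read 12.5 and 6.48 units on the Aff3-/- arrays, against 8.99 and 8.26 units on the Aff3+/- arrays. Ptgir, the prostacyclin receptor, read 1134 and 1586 units on Aff3-/- replicates 1 and 2, against 936 and 1242 units on Aff3+/- replicates 1 and 2, a difference of 0.33 ± 0.23 with overlap. Tbxa2r, the thromboxane receptor, differed by -0.34 ± 0.32 between genotypes and by 0.64 between numbers. The prostaglandin D2 receptors Ptgdr and Ptgdr2, the prostaglandin F receptor Ptgfr and Ptgfrn were not well above background on any array.

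Of the other leukotriene and lipoxygenase enzymes, 10 of 21 were well above background on all arrays, and Alox15, Alox12e and Alox8 were not on any. Lta4h, which makes leukotriene B4, differed by 0.10 ± 0.11 between genotypes, and Ltc4s, which makes leukotriene C4, by -0.10 ± 0.12. Alox12, a 12-lipoxygenase known from platelets, read 16.2 and 11.1 units on Aff3-/- replicates 1 and 2, against 15.9 and 20.2 units on Aff3+/- replicates 1 and 2. After scaling it differed by -0.41 ± 0.22 without overlap, but by -0.02 within number 1 and -0.80 within number 2. Its second probe was not well above background. Mgst1, a microsomal glutathione transferase, differed by -0.57 ± 0.36 between genotypes and 0.72 between numbers. Among the leukotriene and lipoxin receptors, 5 of 11 were well above background on all arrays. Cysltr1, a cysteinyl leukotriene receptor, read 15.6 and 13.9 units on Aff3-/- replicates 1 and 2, against 18.9 and 30.5 units on Aff3+/- replicates 1 and 2, a difference of -0.69 ± 0.23. Gpr132, a receptor for oxidised fatty acids, differed by 0.15 ± 0.12 between genotypes, and Ltb4r2, a leukotriene B4 receptor, by 0.60 between numbers.

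Regulators of the Ptgs2 transcript were well above background on all arrays for 22 of 22 genes. The transcription factor Cebpd differed by -0.45 ± 0.25 between genotypes, and the phosphatase Dusp1 by 0.16 ± 0.13. Cebpd differed by -0.88 within number 1 and -0.01 within number 2. It read 770 and 889 units on Aff3-/- replicates 1 and 2, against 1369 and 941 units on Aff3+/- replicates 1 and 2. Egr1, an early response transcription factor, read 5284 units on Aff3-/- replicate 1 and 5083 on Aff3+/- replicate 1, against 1783 on Aff3-/- replicate 2 and 1154 on Aff3+/- replicate 2. It was higher on both number 1 arrays, by 1.88 on the log2 scale, the opposite direction to Ptgs2. Cebpb was also higher under number 1, by 1.16, and Fos was lower, by -1.14. Of the cyclic AMP signalling and target genes downstream of EP2 and EP4, 24 of 26 were well above background on all arrays. Adcy7, an adenylyl cyclase, differed by -0.19 ± 0.12 between genotypes and the kinase Sik1 by 0.16 ± 0.12, and Fosl2, an AP-1 subunit, and the nuclear receptor Nr4a1 were lower under number 1, by -1.48 and -1.46.

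**Figure D4:**
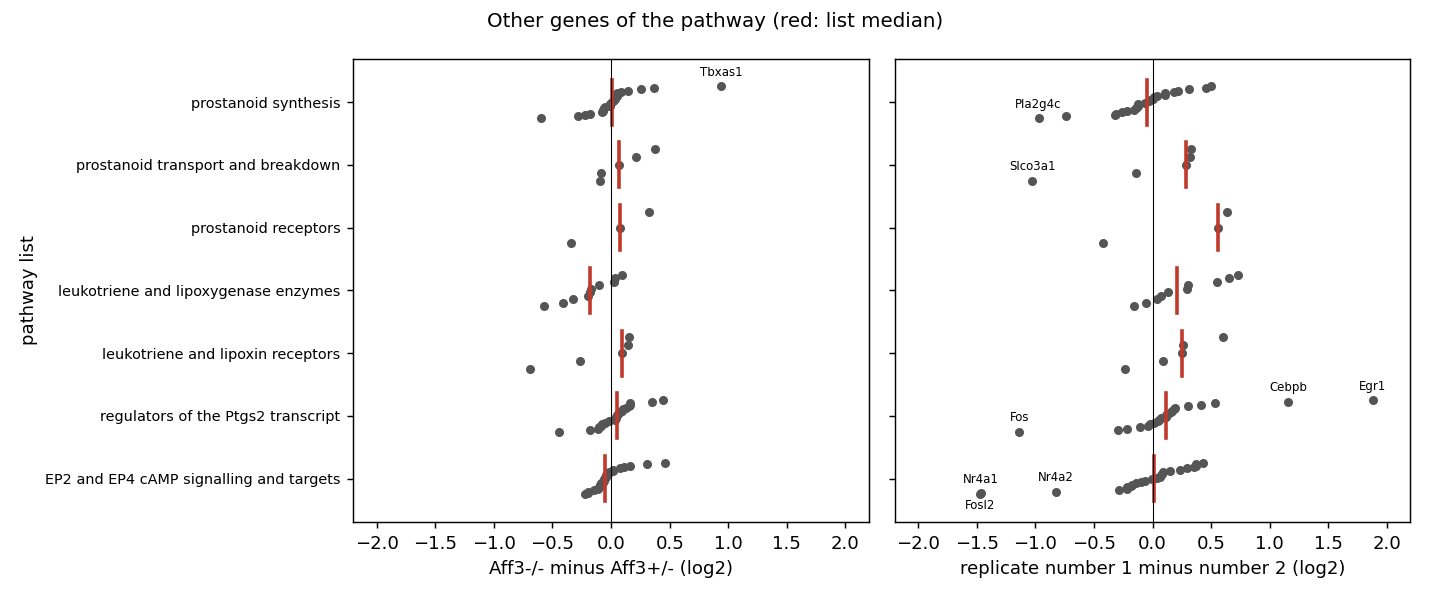
Genotype difference (left, Aff3-/- minus Aff3+/-) and replicate number difference (right, number 1 minus number 2) on the log2 scale for the 93 tested genes of the 7 pathway lists, each point a gene and each red line a list's median. Genes past 0.8 in size are named. Tbxas1 stands apart at 0.94 on the left, and Egr1 (1.88), Fosl2 (-1.48) and Nr4a1 (-1.46) on the right.

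The genes whose 4 array values most resembled those of Ptgs1 and Ptgs2 were found among 13412 genes by the root mean square difference of values centred on each gene's mean, on the log2 scale. For Ptgs1 they were Tnni1 (0.09), Lad1 (0.24), Thy1 (0.26), Ccr4 (0.30) and Scn3a (0.35), against a median of 0.87 over all genes compared. For Ptgs2 they were Me1 (0.23), Fosl2 (0.24), Nr4a1 (0.25), Aebp1 (0.26) and Cxcl1 (0.28), against a median of 0.99. Tnni1 read 67.6 and 57.9 units on Aff3-/- replicates 1 and 2, against 14.0 and 36.2 units on Aff3+/- replicates 1 and 2. Cxcl1 read 9.74 units on Aff3-/- replicate 1 and 11.7 on Aff3+/- replicate 1, against 75.4 on Aff3-/- replicate 2 and 45.6 on Aff3+/- replicate 2. Each likeness rests on 4 arrays. The genes named were picked as the nearest of the 13412, so their values lie below the medians by that choice. The medians therefore give a scale only, and whether any likeness exceeds what such a search would find anyway was not tested.

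**Figure D5:**
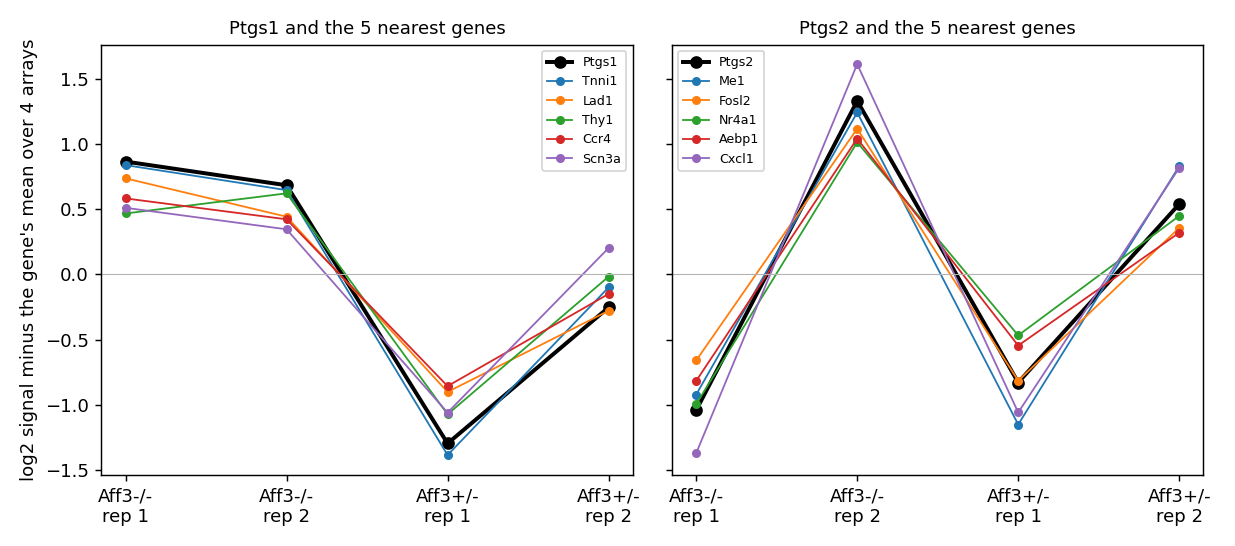
Signal on each array, on the log2 scale and minus the gene's mean over the 4 arrays, for Ptgs1 (left, black) and Ptgs2 (right, black) with the 5 genes nearest to each. Lines join the arrays of a gene to make its profile visible and carry no order. The Ptgs1 set is lowest on Aff3+/- replicate 1, and the Ptgs2 set is high on both number 2 arrays.

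Markers of other cells that carry these genes were read beside them. Of 15 platelet and megakaryocyte markers, 7 were well above background on all arrays, and Ppbp, Gp1ba, Gp5, Gp9 and F2rl2 were not on any. Their summed signal, in multiples of each array's 75th percentile, was 6.34 and 4.97 on Aff3-/- replicates 1 and 2. On Aff3+/- replicates 1 and 2 it was 5.09 and 4.14. Itgb3 made up nearly all of that sum, at 8096 and 6158 units in Aff3-/- against 6258 and 5326 in Aff3+/-, a log2 difference of 0.30. Such linear sums, here and below, follow the brightest genes of a list and do not measure how many cells of a type were present. The platelet chemokine Pf4 read 16.7 and 7.18 units on the Aff3-/- arrays, well above background on both, against 1.43 and 4.28 units on the Aff3+/- arrays, on neither of which it was well above background. By this bound it was at least 1.68-fold higher in Aff3-/-, where the Aff3+/- value is the lowest signal well above background on each array or the probe's own, whichever was higher. The bound is a mean over arrays. On Aff3-/- replicate 2 the 7.18 units of Pf4 lay close to the lowest signal well above background there, 6.17. Tubb1, another platelet gene, read 8.28 and 9.89 units in Aff3-/-, well above background on both arrays, against 2.14 and 6.95 units in Aff3+/-, well above background on 1 of 2. Pf4 and Tubb1 passed the filter on dim probes only through the Aff3-/- arrays, the group where they are high, so their differences are given as values only. Of the 9 platelet markers tested, the genotype difference was above 0 for 4, Pf4 and Tubb1 among them, and below 0 for 5, with a median of -0.03. The part of platelet RNA in the Ptgs1 and Tbxas1 differences was not tested.

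T cell markers were well above background on all arrays for 10 of 14 genes, Cd3g and Themis on none. Their summed signal was 10.9 and 10.3 in Aff3-/- against 10.8 and 10.5 in Aff3+/-. Lck made up most of that sum, at 8691 and 8038 units in Aff3-/- against 9169 and 8819 in Aff3+/-. Of the 12 tested, the genotype difference was above 0 for 6 and below 0 for 6, with a median near 0. Cd8a and Cd8b1, both above 0, were well above background on 2 Aff3-/- arrays and on 1 Aff3+/- array. They passed the filter only through the group where they are higher, so this count and median are given as values only. Without overlap between genotypes, 3 were higher in Aff3-/- (Thy1, Cd28 and Cd8a) and 1 was lower (Zap70). Over all features, 8.44% were higher and 11.1% lower without overlap. Thy1 read 1376 and 1497 units on Aff3-/- replicates 1 and 2, against 457 and 1009 units on Aff3+/- replicates 1 and 2. The log2 differences were 1.01 for Cd8a, 0.33 for Cd28 and -0.32 for Zap70. The part of T cell RNA in the Ptgs1 difference was not tested. Myeloid markers, given because Alox5, Alox5ap and Ptgs2 are known from such cells, were partly at background. Of the monocyte and macrophage markers 7 of 14 were well above background on all arrays (Lyz2, Fcgr1 and C1qa among those on none). Their sums were 16.5 and 14.4 in Aff3-/- against 17.5 and 15.6 in Aff3+/-, and came mostly from Itgam and Mpeg1. The genotype difference was below 0 for 5 of the 7 tested (median -0.11) and of largest size for Cd14, at 0.26, whose genotypes overlapped. Of the neutrophil markers 3 of 12 were (S100a8, S100a9 and Mpo among those on none), with sums of 75.9 and 87.9 in Aff3-/- against 79.9 and 86.1 in Aff3+/-. Csf3r made up nearly all of these sums, at 99248 and 112450 units in Aff3-/- against 101144 and 115037 in Aff3+/-. Camp, at 0.35, was higher in Aff3-/-, and the 2 others tested had differences below 0. Of the mast cell and basophil markers 4 of 11 were (Mcpt8, Cpa3 and Fcer1a among those on none), with sums of 0.46 and 0.39 in Aff3-/- against 0.47 and 0.35 in Aff3+/- and with Prss34 at 0.24. Among the 4 tested the difference was above 0 for 3 and below 0 for 1.

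The remaining lists gave 5 of 9 dendritic cell markers (Zbtb46 0.52), 5 of 10 NK cell markers (Tbx21 -0.24), 4 of 7 erythroid markers (Hbb-bt -0.66), 5 of 12 stromal and endothelial markers (Cdh5 -0.61) and 8 of 8 plasma cell markers (Tnfrsf17 0.38) well above background on all arrays, each with the genotype difference of largest size. In that order, 2, 0, 2, 1 and 7 of the tested markers had a difference above 0. Those below 0 were 3, 5, 3, 4 and 1. The erythroid marker Klf1, below 0, was well above background on 1 of 2 Aff3-/- arrays, so these counts are given as values only. The second Zbtb46 probe gave 0.24. The summed B cell signal was 377 on Aff3-/- replicate 1 and 368 on Aff3+/- replicate 1, against 307 on Aff3-/- replicate 2 and 327 on Aff3+/- replicate 2, and the largest genotype difference was that of Cr2, at -0.53. Among the 12 B cell markers the difference was above 0 for 3 and below 0 for 9. By number, 11 of 12 B cell markers were higher under number 1 without overlap, as were 5 of the 7 tested monocyte and macrophage markers, against 33.5% of all features. Alox5ap was higher under number 1 too and Ptgs2 lower, and the part of these markers in either difference was not tested.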

How the data were processed

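Total RNA of 4 cultured B cell samples was labelled with Cy3 from 150 ng and hybridised to 1-colour Agilent mouse arrays, per the labels' protocols. Agilent Feature Extraction 10.7.1.1 produced the spot signals, per the submitters' processing notes. The deposited scanner files hold processed signals, which are background-subtracted intensity values, with no normalization between arrays per the file headers. A second deposited table holds log2 values of 25372 probes. Each row there is centred on its median, the direction matches that of the scanner signals (correlation 0.9998 to 0.9999), and the scaling between arrays is not stated. The Ptgs2 genotype difference was 0.289 there and 0.290 from the scaled scanner signals, and the number difference was -1.89 and -1.87. The table is therefore not an independent check of those signals. Its column medians were 0.02 and -0.04 for Aff3-/- replicates 2 and 1, and -0.03 and 0.13 for Aff3+/- replicates 2 and 1. It served as an alternative only.

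Each array held 44397 spots. The 1377 control spots and the 105 to 137 outlier-flagged spots were left out. The log2 processed signal minus the array's 75th percentile was averaged over the spots of a probe. A probe counted as well above background when at least 0.5 of its spots did, and was kept when both arrays of a genotype passed. This left 25131 probes and 20646 features, with a gene's brightest passing probe standing for it. Symbols came from a RefSeq table of GRCm38.p6 through transcript accessions (26581 probes) or a synonym (11), and 12837 probes carry none.

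Genotypes were compared in R 4.3.3 by limma 3.58.1 (lmFit, then eBayes, two-sided, Benjamini-Hochberg over all features). The replicate number difference came from a fit with genotype and number. The fit was tested on simulated data. Background correction with normexp (offset 50) used the median signal, because the files hold no mean signal. The arrays share 1 slide and 1 scan.

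The members and lists were chosen with earlier results of these data known. Named genes were all member probes. In each pathway list they were the 2 genes of smallest genotype p and the gene of largest number difference. The 5 genes nearest to Ptgs1 and to Ptgs2, and in each marker list the gene of largest genotype difference among those above background on all arrays, were also named. Pla2g4a, Lta4h, Ltc4s, Fos, Cebpb, Nr4a1, Ptger1, Zap70, Cd28, Cd8a, Cd8b1, Lck, Itgam, Mpeg1, Csf3r, Pf4 and Tubb1 were named in addition, after their values were seen.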

Additional observations from a re-analysis of the deposited data

How the results depend on the processing

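Alternatives covered background correction, scaling, the deposited log2 table, the filter on dim probes, the choice of probe, the replicate block, the variance model and leaving out each array. Genotype calls stayed at 0 in all 14, with between 234 and 1456 features at an unadjusted p under 0.05. Ptgs1 was chosen for its genotype difference and has 1 probe. The filter, the choice of probe, the variance model and the replicate block therefore could not change its value. As its genotypes did not overlap, leaving out an array could not turn its sign. The Ptgs1 difference was 1.57 with quantile normalization and 1.58 with median scaling. It was 0.84 with normexp, which adds 50 units to signals of this size, and 1.03 to 2.07 with an array left out. The Ptgs2 number difference was -0.82 with normexp and -2.27 to -1.48 with an array left out. Ptger2 and Ptger4 also have 1 probe each, so the alternatives that could not change Ptgs1 could not change them. Ptger2 ran from 0.34 (normexp) to 0.85, and as its genotypes did not overlap, leaving out an array could not turn its sign. Ptger4 ran from 0.02 to 0.10, all smaller than its SE of 0.11 in the main fit. The Alox5ap genotype difference ran from -0.92 to 0.045 with an array left out, and was above 0 only without Aff3-/- replicate 2. That of Ptges was 0.0022 with median scaling, -0.24 with the deposited values and -0.14 with the mean of its probes, and ran from -0.13 to 0.074 with an array left out. The deposited value matches the dim Ptges probe A_55_P1974189 (-0.24) and not the brighter probe of the main fit (-0.03). It is therefore read as a change of probe. The genotype difference of Ptgs2 ran from -0.90 to 1.48. The deposited table gave no value for Ptgs1, Ptger2 and Ptger4. Number calls were 0 except with a trended, robust variance (5559, on 1 residual degree of freedom). The cause was not tested. With the replicate block, genotype calls were 0, 1456 features had an unadjusted p under 0.05, against 422 without it, and the adjusted p was 0.66 for Ptger2. The SE of the genotype difference was then 0.33 for Ptgs1, 0.28 for Ptgs2 and 0.08 for Ptges. It was 0.16 for Ptger2, 0.08 for Ptger4 and 0.16 for Alox5ap. Deviations of same-numbered arrays correlated at 0.56 over 20632 features, but with 2 pairs and no stated source the numbers do not establish a pairing. Number calls could not be fitted with an array left out. With 1 slide and 1 scan, no block for either could be run.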
